A study of Mus musculus with 6 samples.

Results

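SR proteins and heterogeneous nuclear ribonucleoproteins (hnRNPs) are the main families of RNA-binding proteins that steer the choice of splice sites, and their genes were taken as every gene in the deposited transcript table whose name starts with Srsf or Hnrnp. The rule found 31 genes, 11 Srsf and 20 Hnrnp, of the 21801 genes in the table. They hold 135 of its 59192 transcripts. Values are FPKM, a fragment value scaled to transcript length and library depth, and a gene's level is the sum over its transcripts. 30 of the 31 genes had a 6-library mean of at least 1 FPKM, as did 9925 of all genes, and 83 of the 135 transcripts did, as did 14846 of all transcripts.

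The cells were B16F10-OVA, a mouse melanoma line of ovalbumin-expressing genotype, which both groups share. 3 libraries came from cells kept for 5 days in 50 µM Ac4ManNAz, a peracetylated azide-bearing mannosamine that cells turn into azido sialic acid for click chemistry, and 3 from untreated cells; the protocol gives a passage on day 3. The comparison asks whether this metabolic labelling disturbs the transcriptome. Nothing in the labels ties the 3 libraries of a group to different cultures, and p-values therefore cover library-to-library spread that may be technical alone.

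SR proteins carry RNA recognition motifs and a tail rich in arginine and serine, bind enhancer sequences in exons and recruit the spliceosome. hnRNPs coat nascent transcripts through RNA recognition or KH domains, often block splice sites, and also act in RNA packaging, export and stability. Both families splice their own transcripts in alternative ways, in part through exons that direct a transcript to nonsense-mediated decay. All 135 member transcripts in the table are annotated as protein coding in GENCODE M21, and transcripts annotated as decay targets or with retained introns were not analysed here. Gene levels and shares of the members therefore cover the listed protein-coding transcripts alone.

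The alternative coding stretches in which the expressed transcripts of these genes differ are shown first, since the results turn on how FPKM is divided among them. They were found by comparing transcripts by identifier in GENCODE M21 (mouse build GRCm38): a stretch of at least 30 coding bases, inside 1 exon of one member transcript and spliced out of another, both with a mean of at least 1 FPKM. This gave 20 stretches in 13 genes, of which 9 were picked for printing after their values were seen. The first 4 separate well known protein forms. The 36-base exon of Hnrnpa2b1 at chr6:51467391-51467426 (minus strand) distinguishes hnRNP B1 from A2. The 39 bases of Hnrnpc at chr14:52081789-52081827 (minus strand) distinguish hnRNP C2 from C1. The 120-base exon of Hnrnpa2b1 at chr6:51464428-51464547 (minus strand) codes for part of the glycine-rich domain, and capitals mark its codons that begin with GG, which code for glycine and make up 23 of 39 whole codons. The 295 bases of Srsf10 at chr4:135863729-135864023 (plus strand) code for arginine- and serine-rich sequence, and capitals mark arginine and serine codons, 46 of 98.
Hnrnpa2b1, 36 bases: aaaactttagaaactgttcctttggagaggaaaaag
Hnrnpc, 39 bases: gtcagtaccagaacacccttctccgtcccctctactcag
Hnrnpa2b1, 120 bases: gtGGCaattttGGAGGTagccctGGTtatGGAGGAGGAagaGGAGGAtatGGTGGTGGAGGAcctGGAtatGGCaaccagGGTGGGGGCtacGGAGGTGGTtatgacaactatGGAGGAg
Srsf10, 295 bases: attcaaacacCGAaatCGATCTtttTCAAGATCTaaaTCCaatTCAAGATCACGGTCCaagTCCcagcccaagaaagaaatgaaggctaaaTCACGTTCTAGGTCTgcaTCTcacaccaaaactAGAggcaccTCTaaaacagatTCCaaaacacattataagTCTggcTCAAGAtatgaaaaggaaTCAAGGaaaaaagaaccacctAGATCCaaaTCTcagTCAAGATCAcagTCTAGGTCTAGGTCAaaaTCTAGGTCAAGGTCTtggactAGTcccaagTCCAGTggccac

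The other 5 stretches are shown as examples of a narrow and of a wide range between libraries. Those of Hnrnpab at chr11:51601750-51601890 and Hnrnpk at chr13:58396188-58396259 are whole exons on the minus strand, and the percentage of FPKM that holds them ranged by 3.45 and 2.98 points over the 6 libraries. The stretches of Hnrnpm at chr17:33666530-33666646 (minus strand), Hnrnpr at chr4:136314099-136314255 (plus strand) and Hnrnpa3 at chr2:75659324-75659389 (plus strand) divide pairs of transcripts between which FPKM moved from library to library, nearly all of it in Hnrnpr and Hnrnpa3 and part of it in Hnrnpm. The stretch of Hnrnpr begins with the start codon of the longer coding sequence, marked in capitals.
Hnrnpab, 141 bases: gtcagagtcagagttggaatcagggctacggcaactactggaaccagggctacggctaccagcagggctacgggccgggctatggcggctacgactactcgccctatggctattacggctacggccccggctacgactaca
Hnrnpk, 72 bases: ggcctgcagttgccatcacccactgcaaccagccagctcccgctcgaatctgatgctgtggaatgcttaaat
Hnrnpm, 117 bases: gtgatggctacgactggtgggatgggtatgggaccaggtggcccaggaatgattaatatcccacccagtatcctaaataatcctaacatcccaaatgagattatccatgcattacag
Hnrnpr, 157 bases: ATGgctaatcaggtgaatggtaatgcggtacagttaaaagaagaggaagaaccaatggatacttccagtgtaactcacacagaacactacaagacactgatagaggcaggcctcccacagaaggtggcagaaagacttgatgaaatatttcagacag
Hnrnpa3, 66 bases: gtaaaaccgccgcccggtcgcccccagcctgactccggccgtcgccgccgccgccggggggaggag

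Summed FPKM lay between 310003 and 347126 in the Ac4ManNAz libraries and between 316925 and 341776 in the untreated ones, and 9678 to 10042 genes per library reached 1 FPKM, while 13912 to 18974 were above 0. The file holds no counts, so depth is unknown and no counting interval is given. All 7 melanocyte markers had a mean of at least 1 FPKM, with sums of 7431 to 9093 FPKM in Ac4ManNAz cells and 7636 to 9313 FPKM in untreated cells. One of them, Mlana, stood at 158 FPKM in Ac4ManNAz library 2, against 856 to 1269 FPKM in the other 5 libraries. Summed markers of macrophages, fibroblasts, endothelium, epithelium and T cells were at most 5.73 FPKM in any library. Of these markers, Lyz2 and Cd68 (macrophage), Col1a2 (fibroblast) and Vwf (endothelium) had means of at least 1 FPKM, at 2.82, 1.33, 2.98 and 1.86 FPKM. Only C1qa, a macrophage complement gene, was listed at 0 in all libraries.

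Ac4ManNAz left no SR or hnRNP gene past the threshold at gene level. In limma with Benjamini-Hochberg adjustment, 0 of the 30 tested members passed an adjusted p of 0.05, as did 0 of all 9925 genes tested (0%). At an unadjusted p under 0.05 there were 0 of 30 members, against 177 of all genes (1.78%). In no member did the Ac4ManNAz and untreated libraries separate without overlap, against 5.8% of all genes. The smallest unadjusted p among the members was 0.0974, for Srsf7, and every adjusted p was 0.9998 or more.

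The intervals say how large a change these libraries still allow. Fold bounds here are on the log2(FPKM + 1) scale, which narrows the intervals of low genes. Within 2-fold lay the whole 95% interval in 28 of 30 members and 91% of all genes, and within 1.5-fold in 20 of 30 members and 64.3% of all genes. With a pseudocount of 0.1 in place of 1, the interval lay within 2-fold in 26 of 30 members. The members averaged higher in 13 and lower in 17 genes, with a median log2 difference of -0.02, against -0.00 over all genes tested. Of all genes tested, 49.6% averaged higher. The median size of the difference, regardless of sign, was 0.12 on the log2(FPKM + 1) scale in the members and 0.10 in all genes tested. Summed over the family, the SR genes held 645, 569 and 561 FPKM in Ac4ManNAz libraries 1 to 3, against 591, 701 and 643 FPKM in untreated libraries 1 to 3. The hnRNP genes held 1354, 1328 and 1261 FPKM in Ac4ManNAz libraries, against 1363, 1588 and 1271 FPKM in untreated libraries. In both families the ranges overlapped, with untreated library 2 highest in each. Fewer cells of a type and less RNA per cell cannot be told apart in such bulk samples.

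**Figure D1:**
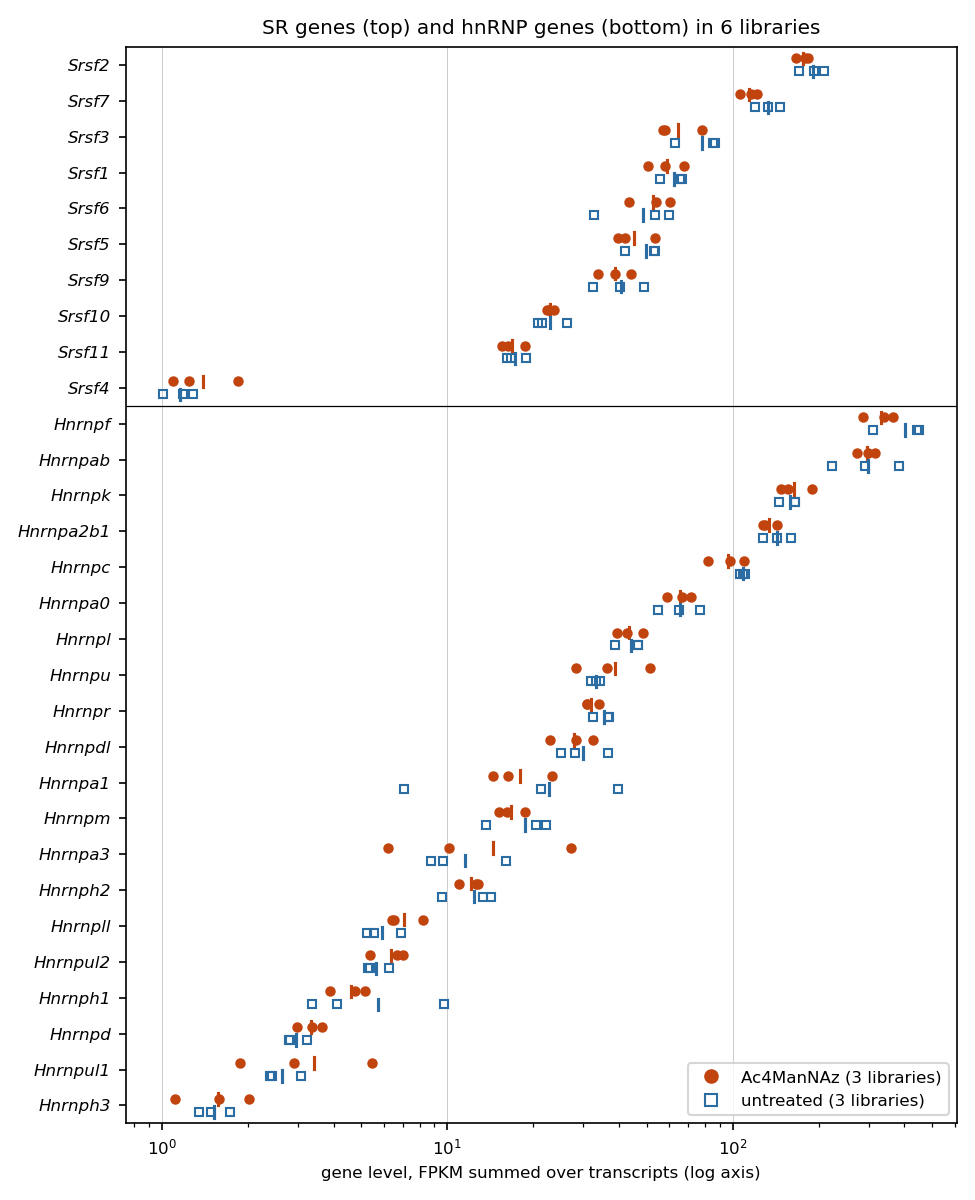
Level of the 30 members with a mean of at least 1 FPKM, as FPKM summed over transcripts on a log axis. Filled circles are the 3 Ac4ManNAz libraries, open squares the 3 untreated libraries and ticks the group means. The groups overlap in every gene, and Hnrnpa1 and Hnrnpa3 show the widest scatter.

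Among the SR genes, 3 averaged higher and 7 lower in Ac4ManNAz cells (5 to 9 lower over the alternatives run), with a median log2 difference of -0.07. The most abundant was Srsf2 (SC35), which binds exonic enhancers and marks nuclear speckles. It had 179.9, 183 and 167 FPKM in Ac4ManNAz libraries 1 to 3, against 171, 209 and 193 FPKM in untreated libraries 1 to 3. Two-sided limma gave a log2 difference of -0.11 ± 0.11 (SE), and the groups overlapped, with untreated library 1 lying among the Ac4ManNAz libraries.

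Srsf7 (9G8), which carries a zinc knuckle and also acts in mRNA export, had 121, 106 and 116 FPKM in Ac4ManNAz libraries, against 119.9, 146 and 133 FPKM in untreated libraries. Its lowest untreated library lay just under its highest Ac4ManNAz library, and the log2 difference was -0.21 ± 0.11 (SE, 95% interval -0.48 to 0.05). Srsf3, the smallest SR protein and an export adaptor, had 78.0, 56.8 and 57.9 FPKM in Ac4ManNAz libraries, against 86.6, 85.6 and 62.6 FPKM in untreated libraries. It had the most negative difference of the SR genes, -0.28 ± 0.18 (SE, 95% interval -0.70 to 0.14), with Ac4ManNAz library 1 above untreated library 3. Neither difference stood out from the spread between libraries, with unadjusted p of 0.0974 for Srsf7 and 0.159 for Srsf3.

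The other SR genes lay closer to 0 or varied more. Srsf1 (ASF/SF2), the archetypal SR protein, averaged 58.7 ± 8.58 FPKM in Ac4ManNAz cells and 62.5 ± 5.80 FPKM in untreated cells (SD, n = 3 each). Srsf5 averaged 45.1 ± 7.36 FPKM in Ac4ManNAz cells and 49.6 ± 6.66 FPKM in untreated cells, and Srsf9 averaged 38.8 ± 5.08 FPKM in Ac4ManNAz cells and 40.6 ± 8.30 FPKM in untreated cells. Srsf10, which represses splicing when dephosphorylated, averaged 22.9 ± 0.629 FPKM in Ac4ManNAz cells and 22.8 ± 2.94 FPKM in untreated cells, the smallest difference of the SR genes (log2 0.01). Srsf11 averaged 16.8 ± 1.66 FPKM in Ac4ManNAz cells and 17.3 ± 1.42 FPKM in untreated cells.

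Srsf6 and Srsf4 averaged higher with Ac4ManNAz without passing the test. Srsf6 had 60.2, 53.7 and 43.5 FPKM in Ac4ManNAz libraries, against 32.7, 53.3 and 59.8 FPKM in untreated libraries, so that both groups scattered, the untreated one over the wider range. Srsf4, close relative of Srsf6 in sequence, averaged 1.39 ± 0.399 FPKM in Ac4ManNAz cells and 1.16 ± 0.137 FPKM in untreated cells, the lowest level of the tested members. Srsf12 was listed at 0.0225 FPKM in Ac4ManNAz library 3 and at 0 in the other 5 libraries, and was not tested.

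Among the hnRNP genes, 10 averaged higher and 10 lower in Ac4ManNAz cells (8 to 12 lower over the alternatives), with a median log2 difference of 0.00. Hnrnpf, whose protein binds runs of G, was the most abundant member. It had 339, 363 and 287 FPKM in Ac4ManNAz libraries, against 450.4, 444 and 309 FPKM in untreated libraries. Untreated library 3 lay inside the Ac4ManNAz range, and the log2 difference was -0.27 ± 0.18 (SE, 95% interval -0.69 to 0.15, unadjusted p = 0.176). In the Hnrnpf-201 transcript, 48.9% of 100-base windows also occur in transcripts of 6 other genes in GENCODE M21, and the part of this sharing in the level was not tested.

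Hnrnpab (CArG-binding factor A) had 297, 273 and 314 FPKM in Ac4ManNAz libraries, against 222, 382 and 291 FPKM in untreated libraries. The untreated libraries spanned the Ac4ManNAz range on both sides, and the log2 difference was 0.02 ± 0.20 (SE). Hnrnpk, a KH-domain protein that binds C-rich RNA, had 190.2, 156 and 147 FPKM in Ac4ManNAz libraries, against 166, 165 and 145 FPKM in untreated libraries. Its log2 difference was 0.05 ± 0.13 (SE), with the highest value in Ac4ManNAz library 1. Hnrnpa2b1, whose protein acts in RNA transport and splicing repression, had 143, 130.1 and 128 FPKM in Ac4ManNAz libraries, against 143, 159.96 and 127 FPKM in untreated libraries. The Ac4ManNAz range of Hnrnpa2b1 lay inside the untreated one, and the log2 difference was -0.10 ± 0.12 (SE).

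Hnrnpc, whose protein binds U tracts and packages nascent RNA, had 109.8, 81.9 and 97.5 FPKM in Ac4ManNAz libraries, against 111, 106 and 108 FPKM in untreated libraries. The untreated libraries were close together and Ac4ManNAz library 1 fell among them (log2 difference -0.18 ± 0.12, SE). Hnrnpr, a relative of SYNCRIP, had 30.9, 31.0 and 33.9 FPKM in Ac4ManNAz libraries, against 36.6, 37.0 and 32.3 FPKM in untreated libraries. Only untreated library 3 overlapped the Ac4ManNAz range, with a log2 difference of -0.14 ± 0.10 (SE).

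Hnrnpll and Hnrnpul2 averaged higher with Ac4ManNAz. Hnrnpll, known for its role in the splicing of Ptprc in T cells, had 6.49, 8.23 and 6.42 FPKM in Ac4ManNAz libraries, against 5.53, 6.90 and 5.24 FPKM in untreated libraries. Untreated library 2 lay above 2 of the Ac4ManNAz libraries, and the log2 difference was 0.23 ± 0.16 (SE, 95% interval -0.14 to 0.59). Hnrnpul2, a relative of Hnrnpu, had 5.35, 7.02 and 6.66 FPKM in Ac4ManNAz libraries, against 5.30, 6.23 and 5.37 FPKM in untreated libraries. The log2 difference was 0.14 ± 0.14 (SE), and the groups overlapped.

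Hnrnpa1, a shuttling protein that antagonises SR proteins, and its relative Hnrnpa3 were the members whose interval reached beyond 2-fold on the log2(FPKM + 1) scale. Hnrnpa1 had 16.3, 23.3 and 14.4 FPKM in Ac4ManNAz libraries, against 21.3, 39.7 and 7.04 FPKM in untreated libraries, so that the untreated group held both the highest and the lowest value (95% interval -1.34 to 1.23). Hnrnpa3 had 6.20, 27.2 and 10.1 FPKM in Ac4ManNAz libraries, against 8.77, 9.67 and 16.1 FPKM in untreated libraries (95% interval -1.04 to 1.26). The most abundant transcript shares 52.7% of its 100-base windows with transcripts of 10 other genes for Hnrnpa1, the highest share of the 30 members, and 27.5% with 24 other genes for Hnrnpa3. Of the other members, 11 had shared windows, 0.961% to 48.9%, and 17 had none; the part of shared windows in the scatter was not tested.

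The remaining hnRNP genes were also within the spread. Hnrnpa0 averaged 65.6 FPKM in Ac4ManNAz cells and 65.4 FPKM in untreated cells, with 43.4 FPKM in Ac4ManNAz cells and 43.9 FPKM in untreated cells for Hnrnpl. Hnrnpdl averaged 27.8 FPKM in Ac4ManNAz cells and 29.9 FPKM in untreated cells. Hnrnpu, the scaffold attachment factor, had 28.2, 51.2 and 36.4 FPKM in Ac4ManNAz libraries, against 31.8, 33.1 and 34.4 FPKM in untreated libraries. Hnrnpm averaged 16.7 FPKM in Ac4ManNAz cells and 18.8 FPKM in untreated cells, and Hnrnph2 averaged 12.2 FPKM in Ac4ManNAz cells and 12.4 FPKM in untreated cells. Hnrnph1, a G-run binder like Hnrnpf, had 3.88, 5.14 and 4.74 FPKM in Ac4ManNAz libraries, against 9.73, 3.35 and 4.12 FPKM in untreated libraries, with a single high value in untreated library 1. At the low end, Hnrnpd (AUF1, a binder of AU-rich elements) averaged 3.32 FPKM in Ac4ManNAz cells and 2.94 FPKM in untreated cells. Hnrnpul1 averaged 3.42 FPKM in Ac4ManNAz cells and 2.63 FPKM in untreated cells, and Hnrnph3 averaged 1.57 FPKM in Ac4ManNAz cells and 1.52 FPKM in untreated cells.

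**Figure D2:**
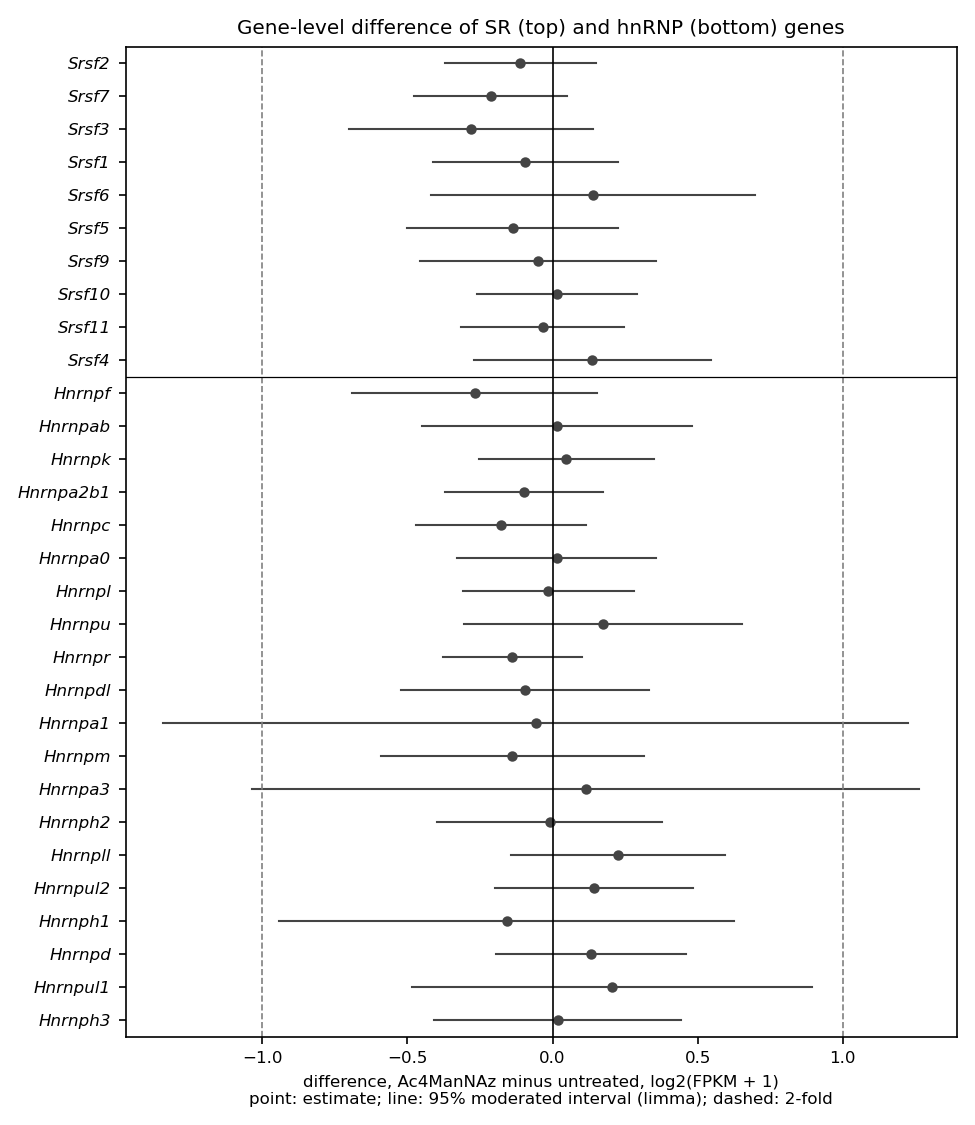
Difference in gene level, Ac4ManNAz minus untreated, on the log2(FPKM + 1) scale, for the 10 tested SR genes and the 20 hnRNP genes. Points are limma estimates, lines the 95% intervals and dashed lines 2-fold. Every interval spans 0, and those of Hnrnpa1 and Hnrnpa3 reach beyond 2-fold.

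How FPKM is divided among the transcripts of a gene was compared next. The share of the most abundant transcript was tested in the 25 members with at least 2 transcripts above 0, among 7067 such genes. It passed an adjusted p of 0.05 in 0 of 25 members, against 9 of 7067 genes (0.127%), and an unadjusted p of 0.05 in 0 of 25 members, against 3.47% of all genes. The groups overlapped in all 25 members, while they did not in 8.35% of all genes. The smallest unadjusted p was 0.111, for Hnrnpll, with an adjusted p of 0.9999.

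Compared with all genes tested, the members held less of their FPKM on the top transcript. Their shares and levels ranged less, but the same transcript was less often on top in all 6 libraries. The median share of the top transcript was 62.4% in the members and 80.8% in all genes tested, and the same transcript was on top in all 6 libraries in 15 of 25 members (60%) and 69.3% of all genes. The share ranged by a median of 12.1 percentage points in the members and 15.4 in all genes. It ranged by more than 50 points in 2 of 25 members (8%), against 17.6% of all genes. The gene sum had a median coefficient of variation over the 6 libraries of 14.2% in the members, against 16.4% in all genes tested. For the top transcript alone it was 18.04% in the members, against 21.4%. These values are descriptions, were not matched for level or number of transcripts, and were not tested.

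Of the 8 shares with the smallest p, 5 had group means that differed by a few points, and Hnrnph3, Srsf2 and Hnrnpr, described after them, had wider differences. Hnrnpll-205 held 95.8%, 96.7% and 97.9% of its gene's FPKM in Ac4ManNAz libraries, against 93.2%, 95.9% and 90.8% in untreated libraries. Only untreated library 2 overlapped the Ac4ManNAz range, by a margin of a fraction of a point. Hnrnpk-205 held 64.4%, 62.7% and 60.2% in Ac4ManNAz libraries, against 60.5%, 60.7% and 56.2% in untreated libraries (unadjusted p = 0.306), with 2 untreated libraries above Ac4ManNAz library 3. Srsf7-208 held 82.4%, 78.0% and 81.0% in Ac4ManNAz libraries, against 71.1%, 83.2% and 77.7% in untreated libraries, so the untreated range enclosed the Ac4ManNAz one. In Srsf11, Srsf11-202 held 93.8%, 91.8% and 89.2% in Ac4ManNAz libraries, against 92.2%, 94.9% and 92.5% in untreated libraries. Hnrnpl-209, of a gene whose protein binds CA repeats, held 90.1%, 89.7% and 91.7% in Ac4ManNAz libraries, against 90.2%, 91.7% and 92.9% in untreated libraries. In these last 2 genes the untreated mean was higher, and the ranges overlapped.

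Srsf2 and Hnrnph3 showed a wider scatter. Srsf2-201 held 68.3%, 56.0% and 75.7% in Ac4ManNAz libraries, against 69.1%, 55.5% and 54.9% in untreated libraries. The Srsf2-206 transcript, which has the same coding sequence, took the remainder, and Ac4ManNAz library 2 lay with untreated libraries 2 and 3. Hnrnph3-203 held 82.5%, 71.9% and 81.3% in Ac4ManNAz libraries, against 80.6%, 65.98% and 60.2% in untreated libraries, where untreated library 1 lay with the high Ac4ManNAz libraries.

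**Figure D3:**
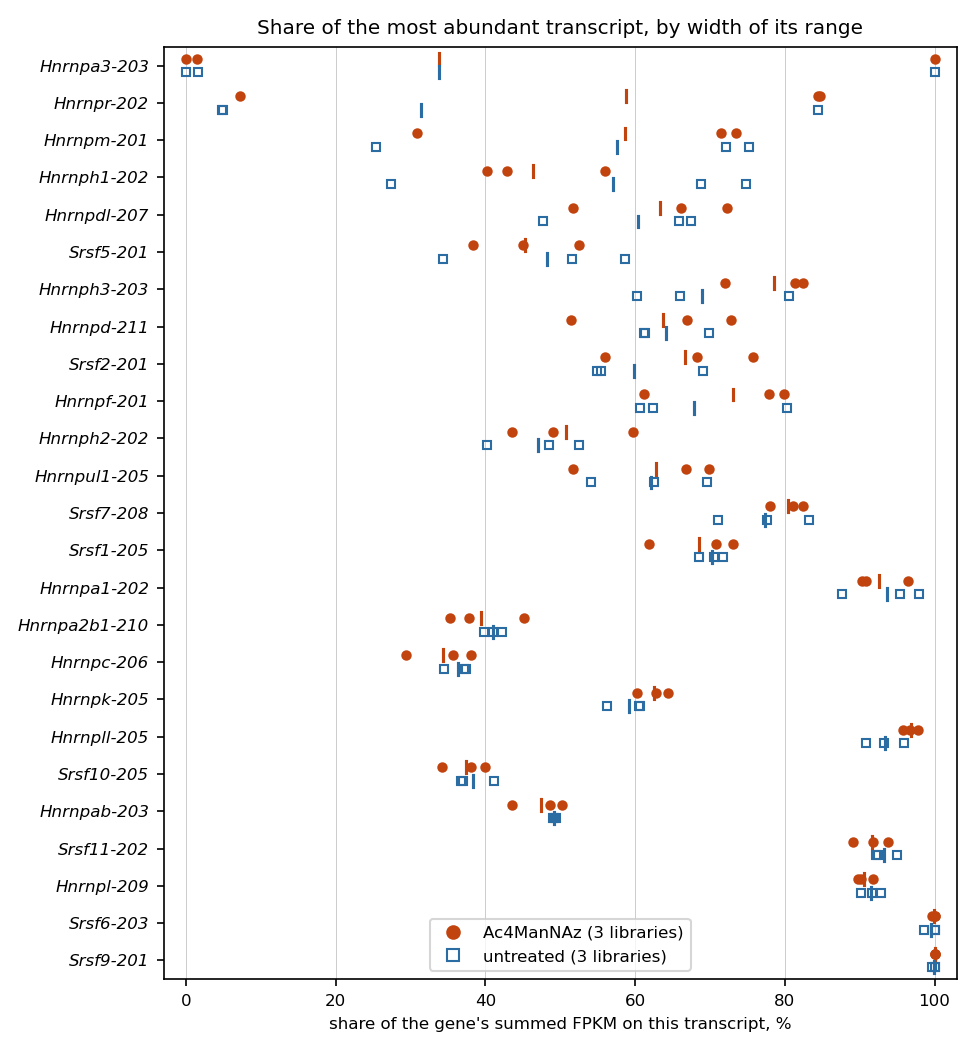
Share of each gene's summed FPKM on its most abundant transcript in the 25 members tested, ordered from the widest to the narrowest range over libraries. Filled circles are Ac4ManNAz libraries, open squares untreated libraries and ticks the group means. Hnrnpa3-203, Hnrnpr-202 and Hnrnpm-201 jump between high and low values inside both groups, while Srsf6-203 and Srsf9-201 stay near 100%.

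The widest swings ran across both groups. Hnrnpr-202 had 2.25, 26.1 and 28.7 FPKM in Ac4ManNAz libraries, against 1.81, 31.3 and 1.55 FPKM in untreated libraries. Hnrnpr-204, which starts its coding sequence later, had 24.9, 1.69 and 1.34 FPKM in Ac4ManNAz libraries, against 31.7, 1.40 and 24.9 FPKM in untreated libraries. Wherever one was high the other was low: Hnrnpr-202 held 84.4% to 84.7% of the gene in Ac4ManNAz libraries 2 and 3 and untreated library 2, and 4.79% to 7.25% in the other 3. The sum of the gene hardly moved, with a coefficient of variation of 8.003%, against 96.8% for Hnrnpr-202. The pair shares 2517 exon bases, which are 93.8% of Hnrnpr-202 and 99.0% of Hnrnpr-204.

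Hnrnpa3 divided in the same way. Hnrnpa3-203 was listed at 0.088, 27.2 and 0 FPKM in Ac4ManNAz libraries, against 0.134, 0.00102 and 16.1 FPKM in untreated libraries. Hnrnpa3-204, which adds the 66-base stretch, was listed at 6.11, 0 and 10.1 FPKM in Ac4ManNAz libraries, against 8.64, 9.67 and 0 FPKM in untreated libraries. In each library one of the pair held nearly the whole gene, and Ac4ManNAz library 2 and untreated library 3 were the ones with Hnrnpa3-203. Those 2 libraries also had the highest summed level of Hnrnpa3 in their group. Hnrnpa3-203 is annotated with 5150 bases and Hnrnpa3-204 with 1654, of which 1582 are shared.

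Hnrnpm and Srsf7 exchanged part of their FPKM. Hnrnpm-201 had 5.00, 13.8 and 10.9 FPKM in Ac4ManNAz libraries, against 3.45, 16.7 and 14.8 FPKM in untreated libraries. Hnrnpm-206, with the 117-base stretch, had 7.14, 1.06 and 3.19 FPKM in Ac4ManNAz libraries, against 6.43, 2.38 and 2.55 FPKM in untreated libraries. Library 1 of both groups was the one in which Hnrnpm-206 exceeded Hnrnpm-201. In Srsf7, the Srsf7-201 transcript had 17.7, 19.8 and 18.6 FPKM in Ac4ManNAz libraries, against 33.5, 19.4 and 0.161 FPKM in untreated libraries. Srsf7-202 had 2.15, 2.36 and 2.01 FPKM in Ac4ManNAz libraries, against 0.199, 3.11 and 28.9 FPKM in untreated libraries. The exchange lay in untreated libraries 1 and 3, while the 3 Ac4ManNAz libraries were alike. Srsf7-201 and Srsf7-202 share 2112 exon bases, 92.3% and 87.9% of their lengths.

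**Figure D4:**
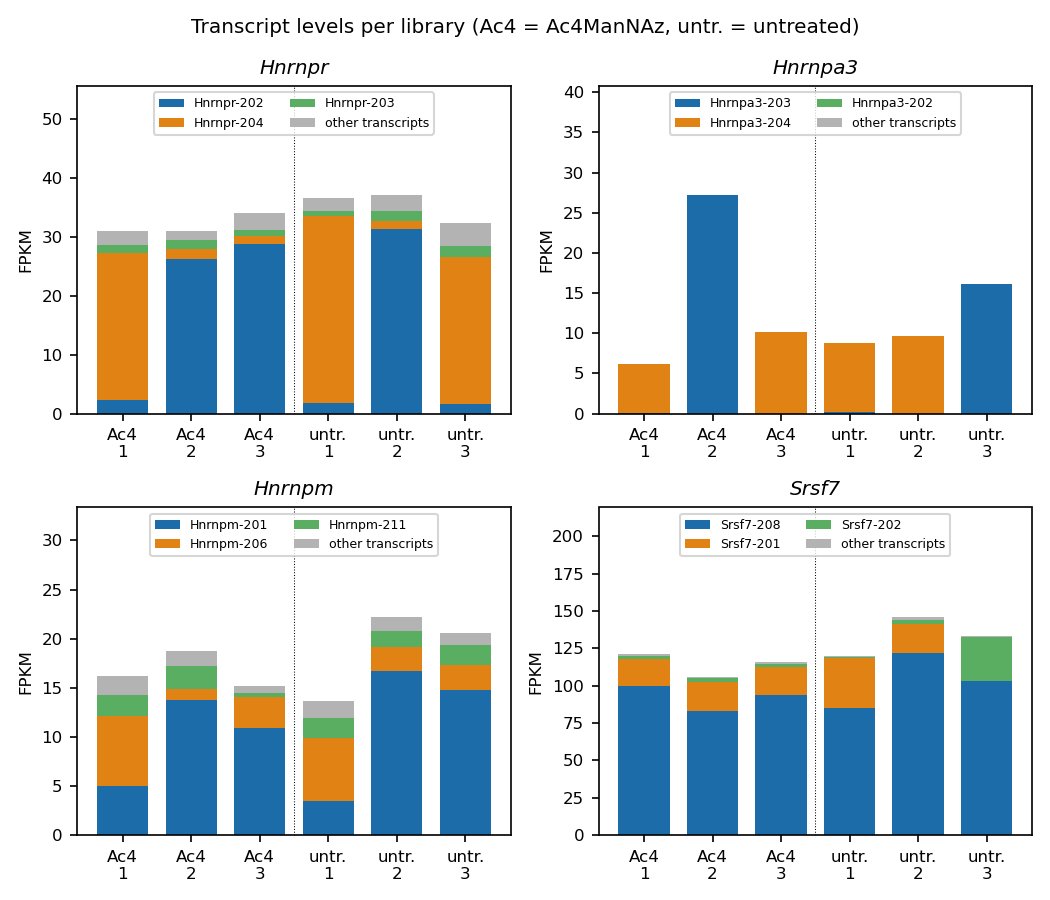
FPKM of the 3 most abundant transcripts and of all others, stacked per library, in Hnrnpr, Hnrnpa3, Hnrnpm and Srsf7, with Ac4ManNAz (Ac4) libraries left of the dotted line and untreated (untr.) libraries right of it. In Hnrnpr the total stays between 30.9 and 37.0 FPKM while Hnrnpr-202 and Hnrnpr-204 change places, in libraries of both groups.

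Smaller swings were seen in 3 other genes with wide ranges. Hnrnph1-202 held 40.2%, 42.9% and 55.9% of its gene in Ac4ManNAz libraries, against 27.4%, 74.8% and 68.8% in untreated libraries. Hnrnpdl-207, of a gene related to Hnrnpd, held 51.7%, 66.2% and 72.2% in Ac4ManNAz libraries, against 65.8%, 47.7% and 67.4% in untreated libraries. Srsf5-201 held 38.3%, 44.95% and 52.5% in Ac4ManNAz libraries, against 34.4%, 58.6% and 51.6% in untreated libraries. In Hnrnph1 and Srsf5 the untreated libraries enclosed the Ac4ManNAz range, and in Hnrnpdl the ranges overlapped. In Hnrnpf, the Hnrnpf-201 transcript was steady at 264, 222 and 229 FPKM in Ac4ManNAz libraries, against 281, 269 and 249 FPKM in untreated libraries. The shorter Hnrnpf-208 had 44.3, 104 and 30.4 FPKM in Ac4ManNAz libraries, against 134, 136 and 30.3 FPKM in untreated libraries, and so carried most of the scatter of the gene.

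The remaining shares tested differed little between groups. The share ranged by 18.3 to 21.4 points over the 6 libraries for Hnrnpul1-205, Hnrnph2-202 and Hnrnpd-211. It ranged by 6.71 to 11.1 points for Srsf1-205, Hnrnpa1-202, Hnrnpa2b1-210, Hnrnpc-206, Srsf10-205 and Hnrnpab-203. Srsf6-203 held 98.6% or more and Srsf9-201 99.6% or more of their genes in every library.

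Grouping transcripts by the alternative coding stretches gave percentages that kept within a narrow range for some stretches and not for others. The percentage is the FPKM on transcripts that hold the stretch, of the FPKM on transcripts with and without it. It ranged by under 10 points over the 6 libraries in 12 of the 20 stretches, by 10 to 20 points in 2 and by 20 points or more in 6. Several of the 12 lay near an end of the scale, where the range in points is bounded. A 36-base exon of Srsf7, at 98.6% to 99.5%, is an example, as is the B1 exon below. Stretches were not sought in other genes, so no share over all genes stands beside these counts. The B1 exon of Hnrnpa2b1 was on 1.76%, 1.49% and 1.45% of the FPKM in Ac4ManNAz libraries, against 0.371%, 1.55% and 1.90% in untreated libraries. Transcripts without this exon, some with and some without the 120-base exon, thus held nearly all of the FPKM throughout. The glycine-rich 120-base exon was on 32.5%, 28.3% and 29.4% in Ac4ManNAz libraries, against 30.2%, 30.3% and 31.0% in untreated libraries. The C2 stretch of Hnrnpc was on 25.3%, 34.5% and 27.4% in Ac4ManNAz libraries, against 27.5%, 28.9% and 27.6% in untreated libraries. None of these 3 separated the groups.

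The arginine- and serine-rich stretch of Srsf10 was on 50.3%, 45.5% and 43.1% of the FPKM in Ac4ManNAz libraries, against 46.0%, 43.7% and 48.6% in untreated libraries. The forms with and without it were thus close to equal in both groups. The 72-base exon of Hnrnpk was on 31.0%, 32.2% and 31.2% in Ac4ManNAz libraries, against 33.9%, 31.0% and 31.3% in untreated libraries. A 31-base stretch of Hnrnpk, not printed, varied more, at 12.9%, 8.03% and 30.5% in Ac4ManNAz libraries, against 25.4%, 31.6% and 29.7% in untreated libraries, with overlap through Ac4ManNAz library 3. The 141-base exon of Hnrnpab was on 65.5%, 62.4% and 65.0% in Ac4ManNAz libraries, against 65.9%, 65.5% and 65.6% in untreated libraries. The groups did not overlap there, which held for 1 of the 20 stretches. For a different measure, the share of the top transcript, they did not overlap in 8.35% of all genes. The highest Ac4ManNAz and lowest untreated values of this exon are equal to 3 digits. No test was run on the stretches, and those printed were picked after their values were seen.

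The 3 printed stretches with wide ranges belong to the exchanged transcripts. Their percentages are built from the same transcript values, so it was fixed in advance that they follow those transcripts. The percentage of the 117-base stretch of Hnrnpm was 51.7%, 11.01% and 24.5% in Ac4ManNAz libraries, against 59.2%, 15.4% and 17.5% in untreated libraries. For the 157-base stretch of Hnrnpr it was 14.5%, 89.2% and 92.4% in Ac4ManNAz libraries, against 10.6%, 91.7% and 16.5% in untreated libraries. For the 66-base stretch of Hnrnpa3 it was 98.6%, 0% and 100% in Ac4ManNAz libraries, against 98.5%, 100% and 0% in untreated libraries. In all 3 genes high and low libraries occurred in both groups. Wide ranges were also found in stretches not printed. A 47-base stretch of Hnrnph1 ranged from 25.2% to 72.6%, and a 258-base stretch of Hnrnpl from 42.4% to 66.0%. The transcripts compared for the latter held 8.94% of the FPKM of Hnrnpl. The groups overlapped in both stretches.

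**Figure D5:**
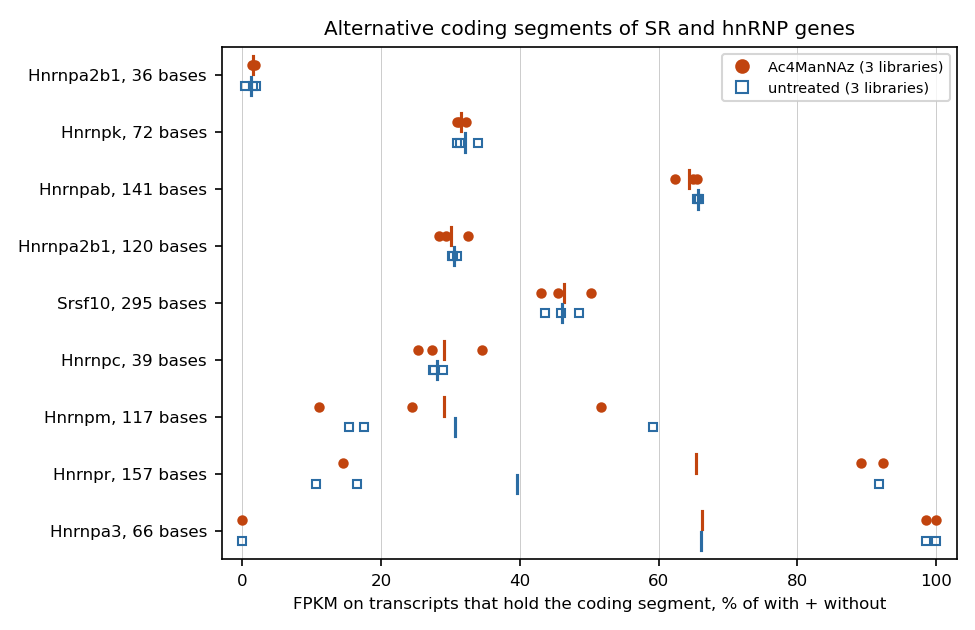
Percentage of FPKM on transcripts that hold each of the 9 printed coding stretches, of FPKM with and without it, ordered by range. Filled circles are Ac4ManNAz libraries, open squares untreated libraries and ticks the group means. The upper 6 stretches stay within 10 points, and those of Hnrnpm, Hnrnpr and Hnrnpa3 split into high and low libraries in both groups.

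Of single transcripts, 0 of 83 members passed an adjusted p of 0.05, against 9 of all 14846 tested (0.0606%). At an unadjusted p under 0.05 there was 1 of 83 (1.2%), against 2.54% of all. In 1 of 83 the groups did not overlap, with all Ac4ManNAz libraries lower, against 6.39% of all in either direction and 3.72% in this one. Hnrnpk-202, which holds the 72-base exon, had the smallest p. It had 14.6, 10.7 and 10.3 FPKM in Ac4ManNAz libraries, against 25.3, 13.8 and 21.6 FPKM in untreated libraries (log2 difference -0.70 ± 0.25, SE, unadjusted p = 0.0336, adjusted p over all transcripts 0.9998). Its untreated library 2 lay below Ac4ManNAz library 1. Hnrnpc-209, the main transcript with the C2 stretch, was the one without overlap, at 26.4, 26.6 and 25.1 FPKM in Ac4ManNAz libraries, against 29.5, 29.0 and 27.6 FPKM in untreated libraries. Its log2 difference was small, -0.14 ± 0.09 (SE), with an unadjusted p of 0.165.

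The next transcripts by p were 3 low ones of Hnrnpk and the main one of Hnrnpll. Hnrnpk-218 had 0, 2.10 and 0.894 FPKM in Ac4ManNAz libraries, against 2.23, 2.17 and 1.86 FPKM in untreated libraries. Hnrnpk-231 had 2.66, 1.74 and 1.58 FPKM in Ac4ManNAz libraries, against 0.404, 0.477 and 2.18 FPKM in untreated libraries. Hnrnpk-216 had 1.93, 0.105 and 6.97 FPKM in Ac4ManNAz libraries, against 2.78, 8.02 and 8.57 FPKM in untreated libraries. These 3 went in different directions and overlapped between groups. Hnrnpll-205 had 6.22, 7.96 and 6.28 FPKM in Ac4ManNAz libraries, against 5.15, 6.62 and 4.76 FPKM in untreated libraries, following the level of its gene. Transcripts of 1 gene share exons, so their values are not independent.

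Genes that work with the members were examined as 4 lists, and none of their genes passed at gene level. Beside the counts by direction stands the 49.6% of all genes tested that averaged higher. Of 17 SR partners (kinases, importins and SR-related coactivators), 0 rose and 0 fell, with 11 averaging higher, 6 lower and a median log2 difference of 0.05. Acin1, an SR-related factor of the exon junction complex, had 14.6, 11.9 and 12.7 FPKM in Ac4ManNAz libraries, against 18.5, 15.04 and 14.8 FPKM in untreated libraries. All its Ac4ManNAz libraries were below all its untreated ones (log2 difference -0.28 ± 0.13, SE, unadjusted p = 0.0765). The groups did not overlap in 5.8% of all genes tested, in either direction. Rnps1, of the same complex, had 16.9, 13.5 and 18.3 FPKM in Ac4ManNAz libraries, against 20.3, 20.004 and 17.8 FPKM in untreated libraries, with Ac4ManNAz library 3 above untreated library 3.

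Of a list of 21 genes, mostly other hnRNP-like RNA-binding proteins but also the importin Tnpo1 and the arginine methyltransferase Prmt1, 20 were tested, 0 passed, 7 averaged higher and 13 lower, with a median of -0.08. Syncrip (hnRNP Q) had 28.6, 19.4 and 39.4 FPKM in Ac4ManNAz libraries, against 15.8, 26.0 and 20.3 FPKM in untreated libraries (log2 difference 0.45 ± 0.28, SE). Pcbp2, a poly(C)-binding KH protein like hnRNP K, had 35.2, 41.8 and 30.97 FPKM in Ac4ManNAz libraries, against 38.6, 45.1 and 40.03 FPKM in untreated libraries. Both overlapped between groups. Of 15 nonsense-mediated decay genes, 0 passed, 5 averaged higher and 10 lower, with a median of -0.08. Smg5, which takes part in the turnover of UPF1, had 33.6, 22.9 and 22.5 FPKM in Ac4ManNAz libraries, against 31.3, 32.3 and 31.8 FPKM in untreated libraries. Eif4a3, the helicase of the exon junction complex, had 84.5, 69.9 and 71.5 FPKM in Ac4ManNAz libraries, against 87.7, 86.5 and 78.7 FPKM in untreated libraries. In both, Ac4ManNAz library 1 lay within or above the untreated range and the other 2 below it.

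Of 17 core splicing factors, 0 passed, 2 averaged higher and 15 lower, with a median log2 difference of -0.10, against -0.00 over all genes tested. The list was not tested as a set. U2af2, which binds the polypyrimidine tract at the 3′ splice site, had 80.5, 105 and 88.7 FPKM in Ac4ManNAz libraries, against 113, 145 and 115 FPKM in untreated libraries. All its Ac4ManNAz libraries were below all its untreated ones, with a log2 difference of -0.44 ± 0.14 (SE, 95% interval -0.78 to -0.10, unadjusted p = 0.0178). Its adjusted p over all genes was 0.9998, and the most abundant U2af2 transcript alone gave a log2 difference of 0.054, in the other direction. Sf3a1, of the U2 particle, had 18.2, 20.6 and 19.9 FPKM in Ac4ManNAz libraries, against 23.1, 22.5 and 21.3 FPKM in untreated libraries, again without overlap (log2 difference -0.18 ± 0.10, SE, unadjusted p = 0.116). Over all genes tested, 5.8% had groups without overlap and 1.78% an unadjusted limma p under 0.05. Tra2a, Ptbp1 and Sf3b3 were the other listed genes without overlap, each lower with Ac4ManNAz, and no listed gene was higher without overlap. The count of core splicing factors averaging lower was 14 with upper-quartile scaling and 12 with quantile normalization, and 12 to 16 over all alternatives run.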

How the data were processed

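Per the labels' protocols, strand-specific Illumina libraries were made from rRNA-depleted total RNA of B16F10-OVA cells; groups and replicate numbers come from the sample titles. The authors deposited 1 table of FPKM per annotated transcript and library. The choice of aligner, quantifier, build and annotation is not given in the sources used here. Whole reads could not be recovered from low values, so no count test was run. Of low values in genes with a single transcript, 30.0% to 54.4% lay within 0.05 of a whole step, where an even spread gives 10%. The step was read from the same values with annotated lengths, so the 10% is not a strict baseline.

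Transcripts were summed per gene identifier. Values were taken to log2(FPKM + 1), and features with a mean of at least 1 FPKM entered limma 3.58.1 (R 4.3.3, eBayes with trend), Ac4ManNAz minus untreated, two-sided, with Benjamini-Hochberg adjustment over all features at 0.05. A fold change on this scale understates that of low genes. The share was tested as log2((top + 1)/(rest + 1)) of the transcript with the highest mean, with the mean level of the gene as trend covariate. The limma code was also run on simulated data, with normal noise of the same size in every feature and shifts of at least 2-fold. That noise was not matched to these data, and the trend covariate of the share test was not used there. The run therefore does not show what size of change these libraries could detect. Coding stretches, shared windows of 100 bases and printed sequences come from GENCODE M21 on GRCm38, matched by transcript identifier (135 of 135). The build of the deposited coordinates is not known, so they were not used. Tables were made with Python 3.11.15, pandas 2.3.3 and numpy 2.4.6, and figures with matplotlib 3.10.9.

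The members and lists were chosen with earlier results of these data known. Every member was named. Values per library were given for the 8 smallest p and 5 most abundant genes, the 8 smallest p and 6 widest ranges of the share, the 6 smallest p of transcripts and the 2 smallest p of each list. Other values per library were chosen after they were seen. Alternatives covered pseudocount, filters, scaling, eBayes settings, transcript summing, a replicate block and each library left out. Correlations of deviations were 0.0643, 0.0188 and 0.261 between same-numbered libraries, against -0.174 to 0.0839 between different-numbered ones. The sample titles state no pairing, and the numbers were not taken as pairs in the main tests. Whether same-numbered libraries share a batch is not known.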

Additional observations from a re-analysis of the deposited data

How the results depend on the processing

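No member was called under any alternative run at the gene, share or transcript level. Over all genes, the gene-level calls were 0, and 4 when a gene was read from its top transcript instead of the sum; leaving out 1 library gave 0 to 1, the 1 without Ac4ManNAz replicate 2. The share calls were 9, and leaving out 1 library gave 1 to 11, with 1 without untreated replicate 3, 2 without Ac4ManNAz replicate 2 or 3, and 3 without untreated replicate 1. The transcript calls were 9, with 2 at a mean of at least 5 FPKM, 4 among transcripts above 0 in all libraries, and 15 from eBayes without trend. Leaving out 1 library gave 4 to 14 transcripts, with 4 without Ac4ManNAz replicate 2 or untreated replicate 3, 5 without Ac4ManNAz replicate 3, and 14 without untreated replicate 2. The cause was not tested. With the replicate number as a block, 0 shares and 1 transcript were called, and it changed no other call; not every library correlated best with its own number.

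The members within 2-fold numbered 28 of 30, and 24 to 29 over the alternatives, the 24 being of the 26 members with a mean of at least 5 FPKM. With a pseudocount of 0.1 in place of 1 they numbered 26 of 30. The SR partners averaging lower numbered 6, and 11 without Ac4ManNAz replicate 2 and 10 without Ac4ManNAz replicate 3. The difference of U2af2, -0.44 from the sum, was 0.054 from its top transcript, the cause of which was not tested. Upper-quartile scaling put 15 members above and 15 below 0, with the median of all genes moved by under 0.1. Uncalled differences of single members changed sign in up to 8 of 30 genes when 1 library was left out, so their directions are not stable. With 3 libraries a group, an exact test of 1 value cannot go below p = 0.1, and unknown depth limits what is said of low transcripts.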
